A study of Rattus norvegicus with 24 samples.

Results

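Enzymes that lithium acts on directly, together with the inositol synthesis enzyme Isyna1, were followed in the kidneys of rats fed lithium. The set held 8 genes chosen by name: the glycogen synthase kinase 3 genes Gsk3a and Gsk3b, the phosphatases Impa1, Impa2, Inpp1, Bpnt1 and Fbp2, and Isyna1, which makes inositol phosphate. All 8 were on the array, each as 1 transcript cluster (the probes that report on a gene), among 14324 named genes and 28894 clusters in all. The rule that names them uses no measured value, but the set was drawn up with earlier results of these data known. Of the 8, 7 passed the filter on low signal in cortex and the same number in medulla, and Fbp2 passed in neither.

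RNA was measured on 24 Affymetrix rat ST arrays from 12 male Wistar rats, 1 array of renal cortex and 1 of renal medulla per animal. The 6 control rats ate standard rodent chow and drank tap water. The 6 lithium-treated rats received 40 mmol lithium per kg of food for 7 days and then 60 mmol per kg until 6 months. Water was free in both groups. The lithium-treated rats also had a salt block, and none is named for the controls, so that lithium and the salt block cannot be told apart. The labels name no genetic change in any animal, and the sources used here give no ages. The samples were whole pieces of tissue, in which fewer cells of a type and less RNA per cell cannot be told apart. Values are log2 signal intensities, on which a step of 1 is a factor of 2 in signal, and levels of different genes on this scale are not comparable. The cortex array of lithium-treated rat 17 equalled the mean of its group, having been alone in its scan group, and carried no value of its own, so the lithium cortex group had 5 animals.

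The tissue labels were checked with marker genes. All 13 proximal tubule genes on the array were lower in control medulla than in control cortex, and 5 of 6 genes of thin limb and papilla, the inner part of the medulla, were higher, where 69.4% of all 16388 clusters tested were called higher in medulla and 1582 were called lower. The medians of the arrays were 5.75 to 5.83 in cortex and 6.12 to 6.22 in medulla, with middle values of 5.79 and 6.16, so the scales of the tissues were offset and levels across tissues carry that offset. Arrays of a tissue fell into scan groups, recovered from the values, whose effect the authors had removed. The SDs, ranges and overlaps given below are of those corrected values, in which the spread within a diet can be narrower than before correction. The tests for lithium took the scan groups into account. The comparison of control medulla with control cortex did not, so its p-values are too small.

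Lithium is a small ion that competes with magnesium, and it inhibits GSK3 and a family of magnesium-dependent phosphatases. Those phosphatases strip phosphates from inositol phosphates, which lets cells recycle the inositol they use for signalling through phospholipase C, from adenosine phosphates left over from sulphate transfer, and from fructose bisphosphate. In the kidney, inositol is also an osmolyte that cells of the inner medulla accumulate against the salty interstitium. Isyna1 itself is not a lithium-inhibited phosphatase: it forms inositol 3-phosphate from glucose 6-phosphate, which Impa1 and Impa2 then turn into free inositol.

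No enzyme of the set passed the test for a lithium effect in either tissue. In cortex, 0 of 7 were called at an adjusted p under 0.05, against 0.574% of all 13766 clusters tested, and 1 had an unadjusted p under 0.05. In medulla, 0 of 7 were called, against 1.19% of 16025 clusters, and 2 had an unadjusted p under 0.05. The difference of the lithium effect between tissues was called for 0 of 7, against 0.0821% of 13403 clusters, with 2 at an unadjusted p under 0.05. The values behind those unadjusted p-values belonged to Isyna1, in cortex, in medulla and in the difference, and to Impa1, in medulla and in the difference. Without scan groups in the fit, 1 enzyme was called in each comparison, which were Isyna1 in cortex, Impa1 in medulla and Isyna1 in the difference. At that setting the shares over all clusters were also larger, at 2.09% in cortex, 6.56% in medulla and 2.04% for the difference. The residual degrees of freedom were 7 in cortex and 8 in medulla with scan groups and 10 without. The scan effect had already been removed from the values, so the 10 are overstated and the p-values without scan groups are too small.

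**Figure D1:**
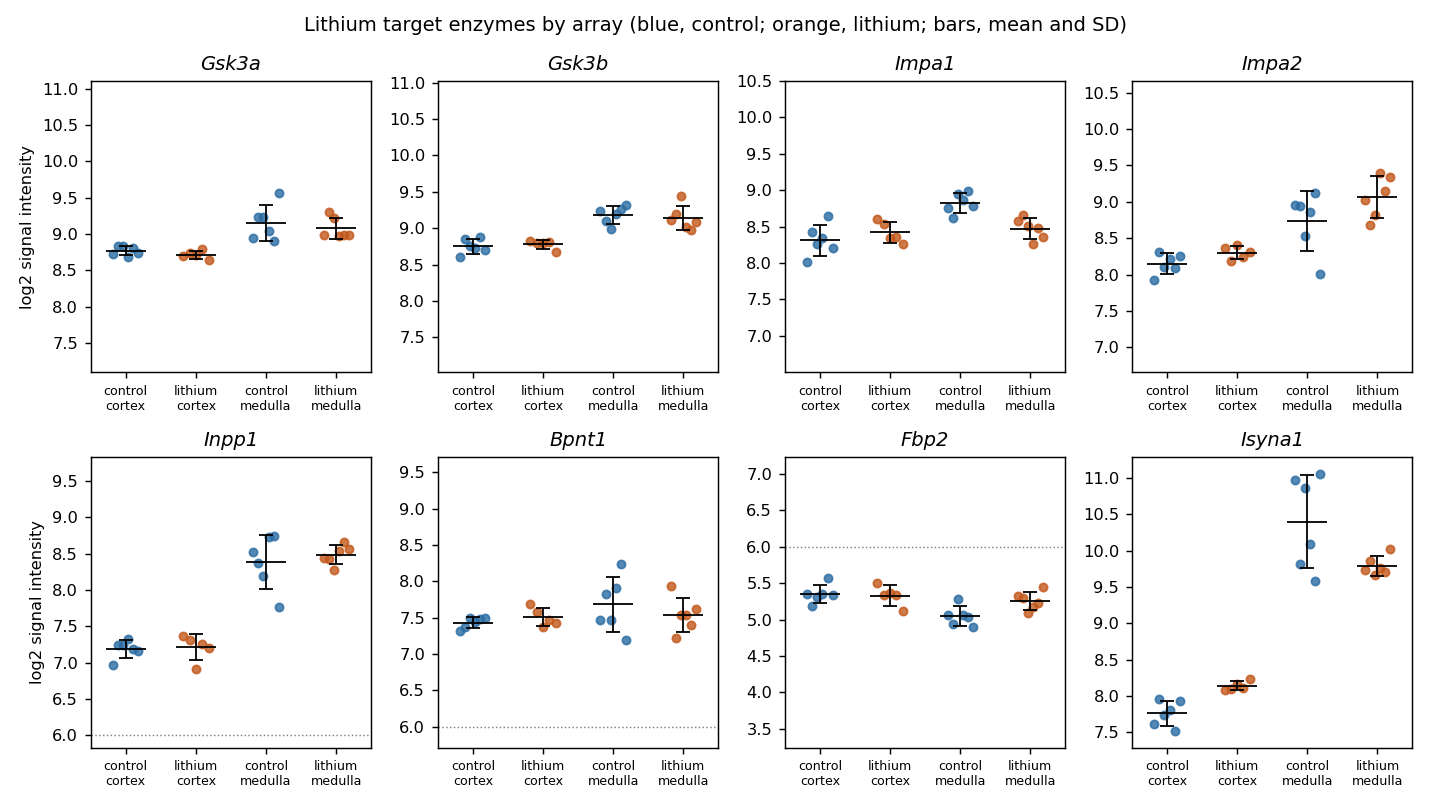
Log2 signal intensity of the 8 enzymes on the 23 arrays with values of their own, in control (blue) and lithium (orange) cortex and medulla, with the mean and SD of each group; every panel spans 4 log2 units and the dotted line, where in range, is the filter at 6. Isyna1 had the widest gap between tissues, its control medulla arrays lay between 9.58 and 11.06, and Fbp2 stayed below 6 on every array.

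Isyna1, inositol-3-phosphate synthase, had the largest differences of the set. In control cortex it was at 7.62 in rat 1, 7.96 in rat 13, 7.74 in rat 15, 7.80 in rat 16, 7.52 in rat 29 and 7.94 in rat 30. In lithium cortex it was at 8.09 in rat 6, 8.10 in rat 18, 8.16 in rat 19, 8.11 in rat 21 and 8.24 in rat 22. Every lithium-treated rat was above every control, so the groups did not overlap, as was the case for 2.57% of all clusters tested in cortex. Isyna1 was the 1 enzyme of 7 with no overlap there. Its mean was 7.76 ± 0.17 (SD, n = 6) in controls and 8.14 ± 0.06 (SD, n = 5) with lithium, a log2 difference of 0.38 (SE 0.10, 95% interval 0.16 to 0.60), or 1.30-fold. The adjusted p was 0.240 with scan groups in the limma fit and 0.0203 without them. Within the 3 scan groups that held both diets, the difference was 0.30, 0.36 and 0.45.

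In medulla the Isyna1 difference ran the other way. The control rats were at 10.97 (rat 1), 9.82 (rat 13), 10.86 (rat 15), 10.10 (rat 16), 9.58 (rat 29) and 11.06 (rat 30). The lithium-treated rats were at 9.73 (rat 6), 9.86 (rat 17), 9.66 (rat 18), 9.76 (rat 19), 9.71 (rat 21) and 10.03 (rat 22). The controls were spread over more than a log2 unit, with rats 1, 15, 16 and 30 above all lithium-treated rats and rat 29 below them all, so the groups overlapped. The means were 10.40 ± 0.64 (SD, n = 6) and 9.79 ± 0.13 (SD, n = 6), a log2 difference of -0.61 (SE 0.26, 95% interval -1.18 to -0.04), with an adjusted p of 0.226 in limma. Within the 3 scan groups it was -0.60, -0.77 and -0.46.

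The SD of Isyna1 in control medulla was 4.79 times that in lithium medulla. A ratio at least as large was found in 94 of the 16025 clusters (0.587%), around a median of 1.04 over all of them. This comparison of spreads was made after the values were seen and was not tested.

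The promoter of Isyna1 is shown because Isyna1 was the enzyme whose cortex groups did not overlap. The sequence, from RefSeq on the rat build GRCr8, covers chr16:18875906-18876205 on the minus strand, 250 bases before the annotated start and 50 after it, written 5′ to 3′ along the gene with each CCAAT box in capitals, on this strand or, as ATTGG, on the opposite strand.
Isyna1 promoter: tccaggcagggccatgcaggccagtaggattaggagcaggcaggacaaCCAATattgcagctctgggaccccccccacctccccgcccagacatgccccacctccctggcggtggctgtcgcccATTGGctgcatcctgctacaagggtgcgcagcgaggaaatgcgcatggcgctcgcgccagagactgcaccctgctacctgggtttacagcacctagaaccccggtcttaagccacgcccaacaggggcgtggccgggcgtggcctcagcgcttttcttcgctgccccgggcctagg

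The CCAAT boxes, the motif bound by nuclear factor Y, lay at -202 as printed and at -126 on the opposite strand, counted from the start. In all, 37.7% of 27457 promoters of this length held CCAAT on either strand. Of the other motifs searched on both strands, GGGCGG (34.9% of promoters), the GC box bound by Sp1, had 1 match at -168 on the opposite strand. There was none for TGGAAA (22.4%), the first letters of the tonicity-responsive element, for CACGTG (6.65%), the E-box, or for the E2F-type letters TTTCGCG (0.867%), TTTGGCGC (0.521%) and TTTCCCGC (1.03%). Of the 8 enzymes, 6 had a promoter in the table, and Impa1 and Fbp2 did not. Among the other 5, CCAAT was found in the promoter of Impa2, with 1 match, and in none of the others. These matches describe the letters only.

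Impa1, the main inositol monophosphatase, was the other enzyme with a low unadjusted p. In control medulla it was at 8.75 (rat 1), 8.62 (rat 13), 8.95 (rat 15), 8.87 (rat 16), 8.99 (rat 29) and 8.78 (rat 30). In lithium medulla it was at 8.57 (rat 6), 8.66 (rat 17), 8.51 (rat 18), 8.26 (rat 19), 8.48 (rat 21) and 8.35 (rat 22). All lithium-treated rats but rat 17 were below every control. None of the 7 enzymes tested had medulla groups free of overlap, and 3.71% of all clusters tested did. The means were 8.83 ± 0.14 (SD, n = 6) and 8.47 ± 0.14 (SD, n = 6), a log2 difference of -0.35 (SE 0.10, 95% interval -0.58 to -0.13), or 0.782-fold. The adjusted p was 0.107 in limma, and 0.0354 without scan groups. Within scan groups the difference was -0.07, -0.52 and -0.47, so it was small in the group of rats 1, 6, 13 and 17.

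In cortex, Impa1 was between 8.02 and 8.65 in the controls and between 8.26 and 8.61 with lithium. These ranges overlapped almost entirely, and the log2 difference was 0.11 (SE 0.12, 95% interval -0.16 to 0.38).

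Impa2, the second inositol monophosphatase gene, stood at 8.95, 8.95, 8.53, 8.86, 9.12 and 8.01 in control medulla (rats 1, 13, 15, 16, 29 and 30) and at 9.03, 8.68, 8.82, 9.40, 9.14 and 9.34 in lithium medulla (rats 6, 17, 18, 19, 21 and 22). Rats 19, 21 and 22 were above every control, and control rat 30 was the lowest of all. The log2 difference was 0.33 (SE 0.20, 95% interval -0.11 to 0.77), with -0.10, 0.42 and 0.68 within scan groups. It was 0.15 without control rat 30. In cortex it was 0.15 (SE 0.10, 95% interval -0.06 to 0.36), from 7.92 to 8.31 in controls and 8.18 to 8.40 with lithium.

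Inpp1, which removes the 1-phosphate from inositol bisphosphate just before the monophosphatases act, lay between 6.97 and 7.32 in control cortex and between 6.91 and 7.37 in lithium cortex. In medulla it lay between 7.77 and 8.75 in controls and between 8.28 and 8.66 with lithium, inside the control range. The log2 differences were 0.02 (95% interval -0.21 to 0.26) in cortex and 0.09 (95% interval -0.27 to 0.45) in medulla. In control medulla, rat 30 was again the lowest.

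Bpnt1, which turns adenosine 3′,5′-bisphosphate into AMP after sulphate has been transferred, lay between 7.31 and 7.49 in control cortex and between 7.37 and 7.69 in lithium cortex. In medulla it lay between 7.19 and 8.23 in controls and between 7.22 and 7.93 with lithium, so that the lithium range lay within that of the controls. The log2 differences were 0.08 (95% interval -0.12 to 0.27) in cortex and -0.14 (95% interval -0.54 to 0.26) in medulla. The related Golgi phosphatase Bpnt2 was not analysed here.

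The GSK3 kinases, which phosphorylate glycogen synthase, beta-catenin and many other proteins, had the narrowest intervals in cortex. Gsk3a lay between 8.69 and 8.84 in control cortex and 8.64 and 8.79 with lithium, a log2 difference of -0.06 (95% interval -0.23 to 0.11). In medulla it lay between 8.91 and 9.57 in controls and 8.98 and 9.30 with lithium, a difference of -0.08 (95% interval -0.35 to 0.20). Gsk3b lay between 8.60 and 8.88 in control cortex and 8.67 and 8.83 with lithium, a difference of 0.03 (95% interval -0.16 to 0.21). In medulla it lay between 8.98 and 9.31 in controls and 8.98 and 9.44 with lithium, a difference of -0.04 (95% interval -0.27 to 0.19). All 4 intervals held 0, and the bound farthest from it was the -0.35 of Gsk3a in medulla. Kinase activity and phosphorylation, where lithium acts, were not measured.

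Fbp2, the fructose bisphosphatase of skeletal muscle, was below the filter of 6 on every array. Its means were 5.35 ± 0.13 and 5.33 ± 0.14 in control and lithium cortex (SD, n = 6 and 5) and 5.05 ± 0.13 and 5.26 ± 0.12 in control and lithium medulla (SD, n = 6 each). With no filter, the log2 difference was -0.02 (SE 0.10, adjusted p 0.969) in cortex and 0.21 (SE 0.10, adjusted p 0.329) in medulla. Skeletal muscle genes were also low, with a mean over the 7 on the array of 5.22 to 5.51 in cortex and 5.41 to 5.68 in medulla. Fbp1, the isoform of liver and kidney and a proximal tubule gene, was at 10.29 ± 0.11 in control cortex (SD, n = 6) and 10.20 ± 0.21 in lithium cortex (SD, n = 5), a log2 difference of -0.09 (SE 0.11). In medulla, Fbp1 had a mean of 7.75 ± 0.51 in controls and 7.00 ± 0.51 with lithium (SD, n = 6 each), with 4 of 6 lithium-treated rats below all controls. That difference of -0.74 (SE 0.28) had an adjusted p of 0.181 in limma.

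**Figure D2:**
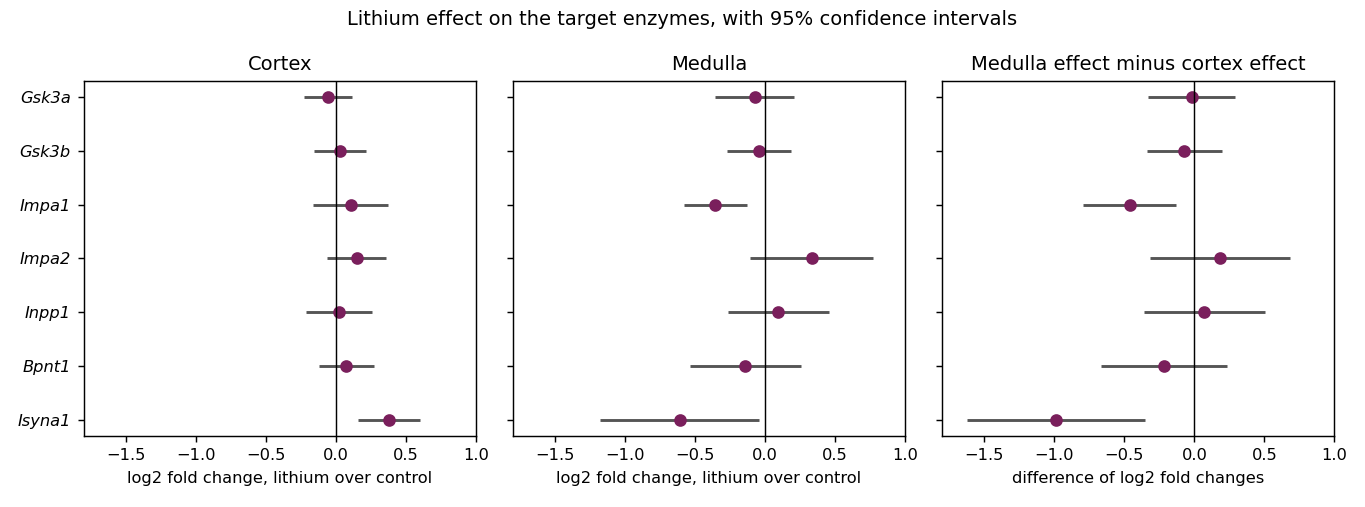
Log2 fold change of lithium over control for the 7 enzymes tested, in cortex, in medulla, and as the medulla effect minus the cortex effect, with 95% confidence intervals from the limma fit. The interval of Isyna1 lay above 0 in cortex and below 0 in medulla and in the difference, that of Impa1 lay below 0 in medulla and in the difference, and the other intervals held 0; no p passed adjustment.

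The same animals gave both tissues, so the distance between medulla and cortex could be taken within each rat. For Isyna1, medulla was above cortex by 3.35 in rat 1, 1.86 in rat 13, 3.13 in rat 15, 2.29 in rat 16, 2.06 in rat 29 and 3.12 in rat 30 among controls. Among lithium-treated rats it was above by 1.64 in rat 6, 1.56 in rat 18, 1.59 in rat 19, 1.59 in rat 21 and 1.79 in rat 22. The lithium-treated rats lay close together, below every control.

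For Impa1 the medulla minus cortex difference was 0.74, 0.19, 0.70, 0.53, 0.34 and 0.58 in control rats 1, 13, 15, 16, 29 and 30, and -0.04, -0.02, -0.07, 0.11 and 0.10 in lithium-treated rats 6, 18, 19, 21 and 22. These groups did not overlap either. Lithium-treated rat 17, the one within the control range of Impa1 in medulla, had no cortex value of its own and was left out. With the group mean as its cortex value its difference was 0.24, above the 0.19 of control rat 13. Of the 7 enzymes, Isyna1 and Impa1 were without overlap on this measure, as were 3.25% of the 13403 clusters that passed the filter in both tissues.

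In the limma fit over all arrays, the lithium effect in medulla minus that in cortex was -0.99 for Isyna1 (SE 0.30, 95% interval -1.62 to -0.35, adjusted p 0.251) and -0.46 for Impa1 (SE 0.16, 95% interval -0.79 to -0.13, adjusted p 0.285). Without scan groups the adjusted p was 0.0484 for Isyna1 and 0.0617 for Impa1. For the other 5 the difference lay between -0.22 (Bpnt1) and 0.18 (Impa2), and each interval held 0.

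**Figure D3:**
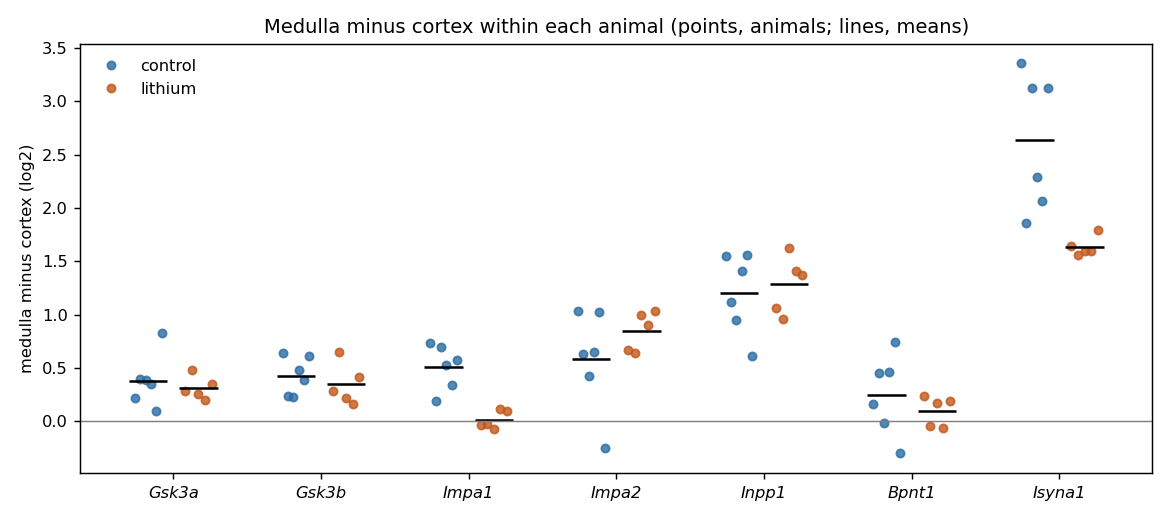
Medulla minus cortex log2 signal within each animal for the 7 enzymes, in 6 control rats (blue) and the 5 lithium-treated rats with cortex values of their own (orange), with group means as lines. For Isyna1 the controls ran from 1.86 to 3.35 and the lithium-treated rats from 1.56 to 1.79, and for Impa1 from 0.19 to 0.74 and from -0.07 to 0.11.

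In the controls alone, 6 of the 7 enzymes were called higher in medulla than in cortex and Bpnt1 was not, but 79.1% of all 16388 clusters were called between the tissues, 11379 of them higher in medulla. That fit had no scan term, so its residual degrees of freedom are overstated and its p-values too small. It also counted the cortex array of rat 17, which had no value of its own. The median log2 difference of the 7 was 0.51, and that of all clusters was 0.50. Isyna1 was 2.64 higher in medulla (SE 0.19, adjusted p 1.15e-11), or 6.22-fold, and Inpp1 was 1.20 higher (SE 0.12, adjusted p 5.96e-09). The other differences were 0.59 for Impa2, 0.51 for Impa1, 0.43 for Gsk3b, 0.38 for Gsk3a and 0.25 for Bpnt1. When each array was centred on its median, Isyna1 and Inpp1 were the enzymes called higher. With quantile normalization over all 24 arrays, Isyna1 and Inpp1 were called higher and Bpnt1 lower, at -0.29. Gsk3a (-0.09), Gsk3b (-0.05) and Impa1 (-0.00182) then had differences just under 0. Over the 5 alternatives other than leaving out an animal, the lowest difference was 2.24 for Isyna1 and 0.65 for Inpp1.

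Levels of Isyna1 were in the order control medulla (10.40), lithium medulla (9.79), lithium cortex (8.14) and control cortex (7.76). The diets did not differ past the adjusted threshold in either tissue, and each of the 5 lithium-treated rats with cortex values had more Isyna1 signal in medulla than in cortex. For Impa1 the order was control medulla (8.83), lithium medulla (8.47), lithium cortex (8.42) and control cortex (8.32). The last 3 overlapped. The lowest control medulla value, 8.62, was below the highest of lithium medulla (8.66) and of control cortex (8.65). Both orders carry the offset between the scales of the tissues. For Impa1, control medulla minus control cortex was 0.51 on these values, 0.15 after centring on array medians and -0.00182 after quantile normalization.

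Marker genes of medulla and of proximal tubule were set beside Isyna1, rat by rat. The papilla and thin limb list was taken without the inositol transporter Slc5a3, which left 5 genes on the array. Their mean in control medulla was 11.04 in rat 1, 10.90 in rat 30 and 10.88 in rat 15, the 3 rats highest in Isyna1, and 10.75 in rat 16, 10.23 in rat 13 and 10.02 in rat 29. The mean of the 13 proximal tubule genes was 7.69, 7.44 and 7.64 in rats 1, 30 and 15, against 8.22, 8.13 and 8.88 in rats 16, 13 and 29. The control medulla arrays with most Isyna1 were thus those with the most signal of papilla genes and the least of proximal tubule genes. The mean of the endothelium list was also highest in them, at 9.38 (rat 1), 9.64 (rat 30) and 9.55 (rat 15).

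In lithium medulla, rats 22, 17 and 19, highest in Isyna1 in that order, had the lowest proximal tubule means, 6.70, 6.84 and 7.12. The papilla mean of the lithium medulla arrays was 9.61 to 10.22, below that of every control but rat 29, which rats 21 and 22 exceeded. Pearson's r of the papilla mean with Isyna1 was 0.10 in lithium medulla and 0.92 in control medulla (n = 6 each). In cortex, the papilla mean was 7.28 to 7.57 in controls and 7.48 to 7.84 with lithium, and rats 13 and 30, highest in Isyna1 among controls, were also highest in it. None of the papilla or proximal tubule genes was called for lithium in either tissue. The part of these markers in the Isyna1 differences was not tested.

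**Figure D4:**
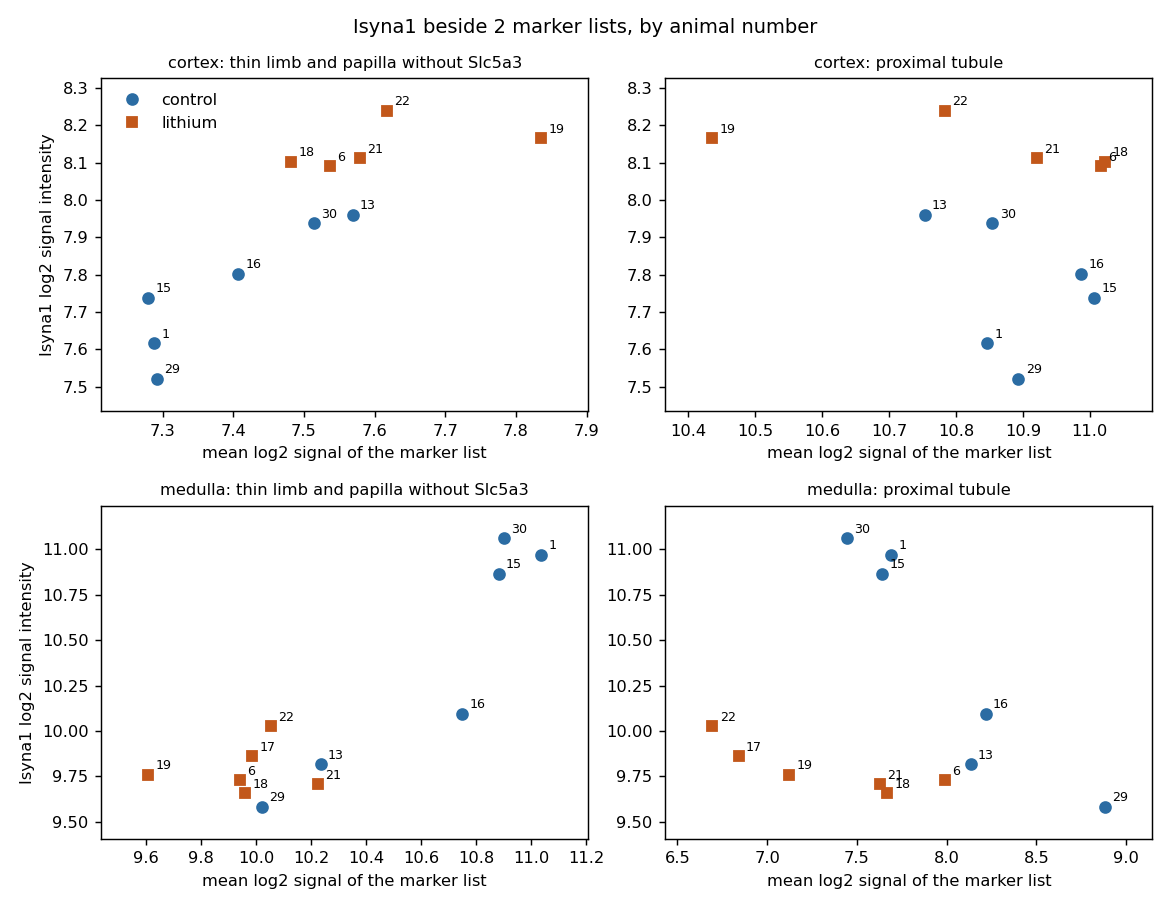
Isyna1 log2 signal against the mean log2 signal of 5 thin limb and papilla genes (left) and of 13 proximal tubule genes (right), by rat number, in cortex (top) and medulla (bottom), for control (circles) and lithium-treated rats (squares). In medulla, control rats 1, 15 and 30 sat at 10.86 or above in Isyna1, with papilla means of 10.88 or above.

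Control rat 30 was at an extreme of control medulla for 6 of the 7 enzymes, highest for Gsk3a (9.57), Gsk3b (9.31) and Isyna1 (11.06) and lowest for Impa2 (8.01), Inpp1 (7.77) and Bpnt1 (7.19). It also had the lowest proximal tubule mean of the controls in medulla, 7.44, but other lists set it apart too. Its means were the lowest of those controls for thick ascending limb and distal convoluted tubule (7.16), intercalated cells (6.12) and macrophages and leucocytes (6.77). For endothelium its mean was the highest (9.64). Some marker lists moved with lithium. In medulla, 3 of 7 intercalated cell genes tested were called higher with lithium, against 1.19% of all clusters called in either direction. So were 3 of 10 macrophage and leucocyte genes and 2 of 8 epithelial injury genes. Called lower there were 1 of 4 podocyte genes and 1 of 4 endothelium genes. The intercalated cell mean was 6.12 to 8.44 in controls and 8.67 to 9.45 with lithium. In cortex, 4 of 8 epithelial injury genes were called higher, against 0.574% of all clusters called in either direction. Of 8 principal cell genes there, 4 were called lower and 1 higher. Their part in the values of the enzymes was not tested.

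The genes most like each enzyme were listed by Pearson's r over the 23 arrays, after each tissue was centred on its mean, among 8088 named genes past the filter in both tissues. These arrays share animals, diets and scan groups, and the coefficients are descriptions. For Isyna1 they were Slc4a11, a membrane transporter (r = 0.93), Capn5, a calpain protease (r = 0.92), and Stard13 (r = 0.90). Their log2 differences of lithium from control were 0.11, 0.29 and 0.20 in cortex and -0.63, -0.39 and -0.43 in medulla; these differences are part of the r that picked the genes, so their signs are no separate result. For Bpnt1 they were Ndufs5, Pdhb and Etfa (r = 0.96, 0.95 and 0.95), all genes of mitochondrial energy metabolism.

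For Impa1 the nearest were Emc7, Capn7 and Dusp12 (r = 0.89, 0.88 and 0.87). For Impa2 they were Tshr, the thyrotropin receptor, Adamtsl4 and Adcy5, an adenylyl cyclase (r = 0.91, 0.90 and 0.89). For Inpp1 they were Ivns1abp, Rab20 and Slc4a1, the anion exchanger of intercalated cells (r = 0.91, 0.90 and 0.87), and Slc4a1 is in the intercalated cell list above. Gsk3a was nearest Adrm1, Nacc1 and Igfbp2 (r = 0.90, 0.86 and 0.83), and Gsk3b nearest Gatc, Zbtb2 and Rbm4b (r = 0.79, 0.79 and 0.77), the lowest values of the set.

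The RNA of inositol transporters and of the enzyme that breaks inositol down was read beside these enzymes. Inositol itself and its transport were not measured. Slc5a3, the sodium-linked inositol transporter that cells raise under salt stress, was at 5.31 to 6.72 in control cortex and 6.56 to 7.12 in lithium cortex, with 3 of 5 lithium-treated rats above all controls. Its log2 difference there was 0.70 (SE 0.23, adjusted p 0.418). In medulla it was at 9.79 to 10.88 in controls and 9.37 to 10.54 with lithium, a difference of -0.47 (SE 0.25, adjusted p 0.328). Its medulla effect minus its cortex effect was -1.17 (SE 0.37, adjusted p 0.258). The signs for Slc5a3 in both tissues were those of Isyna1, and neither gene passed the test.

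Miox, which starts the breakdown of inositol in proximal tubule cells, had a mean of 8.86 ± 0.83 in control medulla and 7.74 ± 0.72 in lithium medulla (SD, n = 6 each), a log2 difference of -1.11 (SE 0.42, adjusted p 0.179). It is in the proximal tubule list, whose mean is given above. In cortex, where its cells lie, the difference was -0.12 (SE 0.14). The proton-linked transporter Slc2a13 differed by -0.27 (SE 0.16) in cortex and -0.46 (SE 0.31) in medulla, where it was -0.18 without lithium-treated rat 17, and the second sodium-linked transporter Slc5a11 by 0.04 (SE 0.22) in cortex. Slc5a11 was under the filter in medulla.

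The wider pathways were read from 5 lists with 143 genes, 122 of them on the array. In cortex, 0 of the 108 tested were called, against 0.574% of all clusters. The median log2 fold change was 0.01, against 0.01 over all clusters. In medulla, 3 of 112 were called (2.68%), against 1.19% of all clusters, 1 higher and 2 lower. The median was -0.09, against -0.01 over all clusters. The difference between tissues was called for 0 of 106, against 0.0821% of all clusters. Without scan groups the calls were 2 higher in cortex, 4 higher and 8 lower in medulla, and 1 higher and 3 lower for the difference, where the shares of all clusters called were 2.09%, 6.56% and 2.04%.

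The gene called higher was Itpr2, an IP3 receptor that releases calcium from the endoplasmic reticulum. It rose from a mean of 8.87 in control medulla to 9.72 with lithium, a log2 change of 0.85 (SE 0.11, adjusted p 0.00686), and stayed called when any of the 12 arrays was left out. In cortex it was 0.41 higher (SE 0.14, adjusted p 0.494), and the difference between tissues was not called (0.44, SE 0.18, adjusted p 0.351). Its list, of phospholipases C, IP3 receptors and enzymes of inositol polyphosphates, had 1 of 35 genes called in medulla and a median of -0.01.

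Mapt, the microtubule protein tau and a GSK3 substrate, fell from 7.77 to 7.18 in medulla, a log2 change of -0.59 (SE 0.12, adjusted p 0.0376). The call was lost, at an adjusted p of up to 0.109, when any array but those of rats 1, 6 and 29 was left out. It was the 1 gene called of 31 tested among kinases upstream of GSK3, its binding partners and its substrates, whose median was -0.10.

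Pgm3, a phosphoglucomutase of amino sugar synthesis, fell from 7.57 to 6.91 in medulla, a log2 change of -0.66 (SE 0.14, adjusted p 0.0485). Its call was lost, at an adjusted p of up to 0.126, when any array but those of rats 6 and 29 was left out. It was the 1 gene called of 19 in the list of fructose bisphosphate and phosphoglucomutase steps, which had the lowest medulla median, -0.26. That list shares Fbp1 and other genes with the proximal tubule markers. No gene was called among the 16 tested for inositol transport and phosphatidylinositol synthesis (median -0.17) or the 11 for sulphate activation (median -0.09).

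**Figure D5:**
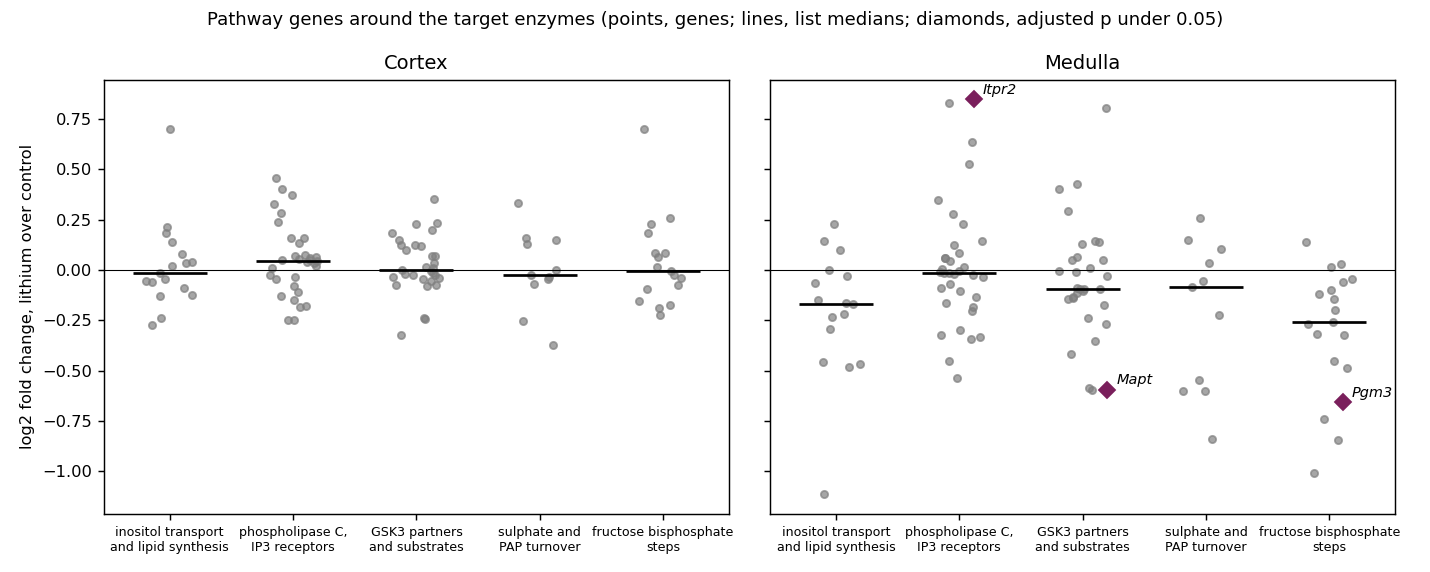
Log2 fold change of lithium over control for the genes of 5 pathway lists around the enzymes, in cortex (left) and medulla (right); points are genes, lines are list medians, and diamonds mark an adjusted p under 0.05. In cortex no gene was called, and in medulla Itpr2 was called higher and Mapt and Pgm3 lower.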

How the data were processed

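The deposited values are log2 signals of 28894 transcript clusters on 24 arrays. The authors corrected the background by RMA, normalized by quantiles, took logs and summarised by median polish in Partek, and removed scan date with a 2-factor model of treatment and scan date. The submitters' notes name RMA, Partek and rn4, and no rn4 coordinates were used. Symbols came from the platform annotation, updated through gene identifiers (15097 clusters had 1 symbol, 323 several and 13474 none). Arrays give no read depth, and their number limits the precision.

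A cluster was tested where 4 or more of the 12 arrays of a tissue reached a log2 value of 6. The test was limma (version 3.58.1, functions lmFit and eBayes, R 4.3.3), with Benjamini-Hochberg adjustment over all clusters tested and a threshold of 0.05. The sources used here give no scan dates. Scan groups were recovered from directions without residual variance (animals 1, 6, 13, 17; 15, 16, 18, 19; and 21, 22, 29, 30; in cortex, 17 was alone) and entered as a term, as in the study's 2-factor model; recovery and fits were tested on simulated data. The interaction used all arrays, with scan group within tissue, and clusters past the filter in both tissues. The tissue comparison had no scan term and took clusters past it in either.

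Samples were grouped by their labels, which give both arrays of a rat its number. Over 11 rats, the deviations of a rat's arrays from their group means correlated between -0.09 and 0.44, and the rat as a block is an alternative. Named were all 8 enzymes, the inositol transporters, Miox, Bpnt2 and Fbp1, up to 4 called genes with the largest change per pathway list and tissue, and the 3 genes most like each enzyme. The members and lists were chosen with earlier results of these data known. Alternatives were the scan group, centring, quantile normalization, the filter, the test, the block and leaving out arrays. Motifs were chosen with sequences seen. Figures were drawn with matplotlib 3.10.9 in Python 3.11.15.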

Additional observations from a re-analysis of the deposited data

Results flagged for a closer look

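Gsk3b in lithium cortex had a sample apart from the others. Rat 22 was at 8.67, and the other 4 lithium-treated rats lay between 8.79 and 8.83. The gap to its nearest neighbour was 0.773 of the whole range of the 5 arrays, above the critical value of 0.71 in Dixon's test. It was the 1 such value among 32 groups of 5 or 6 arrays checked, and chance flags about 1 in 20.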

How the results depend on the processing

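The counts of enzymes called depended on the scan group. With scan groups, 0 of 7 were called in cortex, in medulla and for the tissue difference, and 0 also when any array or animal was left out (lowest 0, highest 0). Without scan groups the count was 1 in each of the 3 comparisons, and with the methods' t-test, which has no scan term, it was 1 in cortex (Isyna1, adjusted p 0.0323) and 1 in medulla (Impa1, adjusted p 0.0439). The fit without scan groups takes the same log2 differences with more residual degrees of freedom. That fit overstates them, since the scan effect was already removed from the values, and its p-values are too small. Over all clusters it called 288 in cortex, 1052 in medulla and 274 for the tissue difference, against 79, 190 and 11, and the methods' t-test called 296 and 650. The 2-factor analysis of variance without moderation called 14 in cortex and 37 in medulla. Leaving out arrays gave 34 to 92 in cortex and 50 to 1053 in medulla, the highest without lithium-treated rat 6, and leaving out animals gave 3 to 34 for the tissue difference. Centring arrays gave 7 for that difference.

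For control medulla against control cortex, 6 of 7 enzymes were called, 6 to 7 when an animal was left out (Bpnt1 joined without control rat 30), 7 with no filter (Fbp2 joined, lower at -0.30), 2 after centring on array medians and 3 after quantile normalization over 24 arrays. Centring turned Bpnt1 to -0.11. Quantile normalization turned Bpnt1 to -0.29, Gsk3a to -0.0851, Gsk3b to -0.0515 and Impa1 to -0.00182. Within tissues, it turned Gsk3b to -0.00122 in cortex and 0.0297 in medulla and Inpp1 to -0.00591 in cortex. Every other reversal came from leaving out 1 array or animal and concerned values that were not called. In cortex these ranged from -0.0151 to 0.12 for Bpnt1, -0.0019 to 0.0633 for Gsk3b, -0.0588 to 0.11 for Inpp1, -0.19 to 0.000721 for Fbp1, -0.21 to 0.0249 for Miox and -0.18 to 0.21 for Slc5a11. In medulla they ranged from -0.14 to 0.0283 for Gsk3a and -0.0603 to 0.18 for Inpp1. For the tissue difference they ranged from -0.0925 to 0.0942 for Gsk3a, -0.0275 to 0.30 for Impa2, -0.0745 to 0.16 for Inpp1 and -0.38 to 0.10 for Slc2a13. Isyna1 and Impa1 kept their signs under every alternative to a lithium comparison.

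The rat as a replicate block (estimated correlation 0.150 for the tissue difference and 0.115 for the tissues) left the counts at 0 and 6, so the pairing changed no call among the enzymes. The call of Pgm3 in medulla was lost with a filter at 5 (adjusted p 0.0534) and with none (0.0604), and those of Mapt and Pgm3 without moderation (0.0946 and 0.117). The alternative with other clusters of a gene was not run, since each enzyme has 1 cluster. Leaving the cortex array without own values out of the tissue comparison was chosen after seeing the data and kept the count at 6.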
